A study of Homo sapiens with 49 samples.

Results

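The TWIST factors TWIST1 and TWIST2 and the E-protein genes TCF3, TCF4 and TCF12 were followed through 2 time courses of human neuroblastoma cells. The 5 genes were chosen by name and all 5 were found among the 23713 entries of the expression tables. SHEP-21N is a neuroblastoma cell line with MYCN under TET-off control, in which doxycycline (0.2 µg/ml) shuts MYCN down. It was sampled at 0 h (2 libraries) and at 2, 4, 6, 8, 16 and 24 h (3 libraries each). BE(2)-C is a neuroblastoma cell line, here engineered with a TET-on hairpin against TWIST1 that doxycycline (0.5 µg/ml) induces. It was sampled without doxycycline and at 3, 6, 12, 24 and 48 h (3 libraries each). All BE(2)-C cells analysed here carry the hairpin construct and TWIST1 is its 1 target. Cells of either model that received doxycycline but lacked the switch were not analysed here. The labels do not say that libraries of 1 group came from separate cultures, so each p-value measures only the spread between these libraries.

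Helix-loop-helix proteins bind DNA as pairs at E-boxes, short sites read CANNTG. The broadly expressed E proteins, encoded by TCF3, TCF4 and TCF12, pair with each other or with tissue-restricted class II partners. TWIST1 and TWIST2 are class II factors known for mesenchymal development and for epithelial to mesenchymal transition, and TWIST1 is known to be expressed in MYCN-amplified neuroblastoma. ID proteins lack the DNA-binding region and hold E proteins in pairs that do not bind DNA. MYCN itself pairs with MAX and prefers the E-box CACGTG.

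Because TCF4 and TCF12 rose and TCF3 fell after MYCN shutdown, 1 upstream window of each is shown, with every CANNTG in capitals. They are the 250 bases before an annotated start, from RefSeq on GRCh38.p14, printed 5′ to 3′ on the strand of the gene. For a gene with several windows, the one with the most CACGTG was taken.
TCF4, chr18:55588618-55588867, minus strand: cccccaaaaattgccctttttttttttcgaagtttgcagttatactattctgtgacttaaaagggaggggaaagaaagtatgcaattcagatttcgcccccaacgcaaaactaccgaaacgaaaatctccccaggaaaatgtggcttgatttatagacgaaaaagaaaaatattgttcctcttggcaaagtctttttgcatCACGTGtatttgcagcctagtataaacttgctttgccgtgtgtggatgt
TCF12, chr15:56917840-56918089, plus strand: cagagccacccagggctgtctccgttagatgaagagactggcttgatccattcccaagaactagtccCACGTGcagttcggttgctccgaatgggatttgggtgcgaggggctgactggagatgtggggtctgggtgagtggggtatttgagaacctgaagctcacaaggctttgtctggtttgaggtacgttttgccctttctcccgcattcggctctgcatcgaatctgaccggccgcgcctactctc
TCF3, chr19:1652616-1652865, minus strand: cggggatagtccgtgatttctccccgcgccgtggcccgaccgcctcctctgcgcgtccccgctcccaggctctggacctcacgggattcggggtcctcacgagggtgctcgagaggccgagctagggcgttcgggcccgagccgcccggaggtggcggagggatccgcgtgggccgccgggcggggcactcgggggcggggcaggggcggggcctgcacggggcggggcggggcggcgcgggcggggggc

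The windows of TCF4 and TCF12 each hold 1 CACGTG, which reads the same on both strands and is itself a CANNTG, while the TCF3 window holds neither. Among 35116 windows of the same length 61.8% hold CANNTG and 6.34% hold CACGTG. RefSeq gives 10 windows for TCF4 and 5 for TCF12, and 1 of each set holds CACGTG. Of these windows 5 of TCF4 and 2 of TCF12 hold CANNTG. TCF3 has 1 window, so only the windows of TCF4 and TCF12 were picked for CACGTG and the contrast with TCF3 carries that choice. The background shares are per window and not per gene. The GC share was 39.2% in the TCF4 window, 56% in that of TCF12 and 79.6% in that of TCF3. The 1 window of TWIST2 (chr2:238847835-238848084, plus strand) holds no CANNTG. Letters in a window are a description and show no binding.

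Levels are FPKM, a read density scaled to transcript length and to library size, so they can be compared between genes within a table. The authors deposited them unnormalised and also rescaled to ERCC spike-in RNA, which was added per lysate after cells were counted. The unnormalised level reads a gene's share of the RNA in a library and the rescaled level its amount against the spike-ins. In bulk samples fewer cells of a type and less RNA per cell cannot be told apart. A fold change is a difference of log2(FPKM + 1) and is given ± its standard error. A gene is said to have risen or fallen where limma gave an adjusted p under 0.05 over all genes with a mean of at least 1 unnormalised FPKM (11867 in SHEP-21N, 11433 in BE(2)-C).

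Some libraries stand apart. The BE(2)-C library without doxycycline numbered 1 differed from the other 2 of its group by transcript length, with a median log2 difference of 0.44 in the shortest of 4 equal classes of genes and -0.50 in the longest. Spike-in totals in the unnormalised BE(2)-C table ran from 15455 to 140361 FPKM, the 3 libraries at 48 h holding the highest. The BE(2)-C library at 3 h numbered 1 listed HBB, a blood gene, at 38.4 FPKM, with no other library above 0.189. Depth is not recoverable from FPKM and is unknown. SHEP-21N cells expressed 11 of 11 mesenchymal markers and 3 of 9 adrenergic markers at a mean of at least 1 FPKM. BE(2)-C cells expressed 9 of 9 adrenergic and 5 of 11 mesenchymal markers, with SOX10, a Schwann cell gene, listed at 0. Of 5 Schwann or glial genes 1, S100B, reached that mean there, and the list summed to 5.44 FPKM without doxycycline and 7.31 at 48 h. KRT19 was the 1 of 4 epithelial genes and CDH5 the 1 of 3 endothelial genes to reach it. The summed unnormalised level of the 11 mesenchymal markers went from 1618 FPKM at 0 h to 2544 at 24 h in SHEP-21N (1452 to 2613 over the libraries). In BE(2)-C it went from 828.8 without doxycycline to 530.0 at 48 h (522.8 to 1150 over the libraries). These markers did not all move together there: VIM rose from 81.6 to 97.6 FPKM while SNAI2 fell from 2.97 to 1.96. SPARC went from 17.3 to 15.7, so most of that sum and of its fall came from other markers of the list. In SHEP-21N VIM went from 489.3 to 496.0 FPKM, SPARC from 222.3 to 312.7 and FN1 from 65.3 to 104.8. Most of the rise there also came from other markers. The sums follow the genes of highest level and do not show a shift of the whole list. The 9 adrenergic markers summed to 62.7 and then 44.3 FPKM in SHEP-21N, and to 1054 and then 1136 in BE(2)-C. The part of either sum in the results below was not tested.

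Before treatment the 2 models differed in which of the genes they listed. In SHEP-21N at 0 h the unnormalised levels in the 2 libraries were 72.9 and 78.1 FPKM for TCF3, 29.8 and 30.0 for TWIST1, 16.1 and 12.1 for TCF12, 12.1 and 12.5 for TWIST2, and 4.92 and 3.67 for TCF4. TCF12 and TWIST2 overlapped and the other neighbours in that order did not. In BE(2)-C without doxycycline TWIST1 stood at 57.9, 74.6 and 62.1 FPKM, TCF12 at 75.0, 42.1 and 75.7, TCF3 at 48.0, 53.0 and 49.3, and TCF4 at 46.3, 23.9 and 45.6. The middle value of each set comes from library 1, and with it the ranges of TWIST1 and TCF12, and of TCF12 and TCF3, overlapped. Without it the means were 75.3 for TCF12, 60.0 for TWIST1, 48.6 for TCF3 and 46.0 for TCF4.

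TWIST2 was listed at 0 unnormalised FPKM in all 18 BE(2)-C libraries. Its rescaled values there, 0.0682 to 0.118 FPKM, stand where the unnormalised table has 0, and nothing is drawn from them. TWIST2 was therefore tested in SHEP-21N only. The 2 tables were normalized separately, so levels are set side by side across models without a test.

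**Figure D1:**
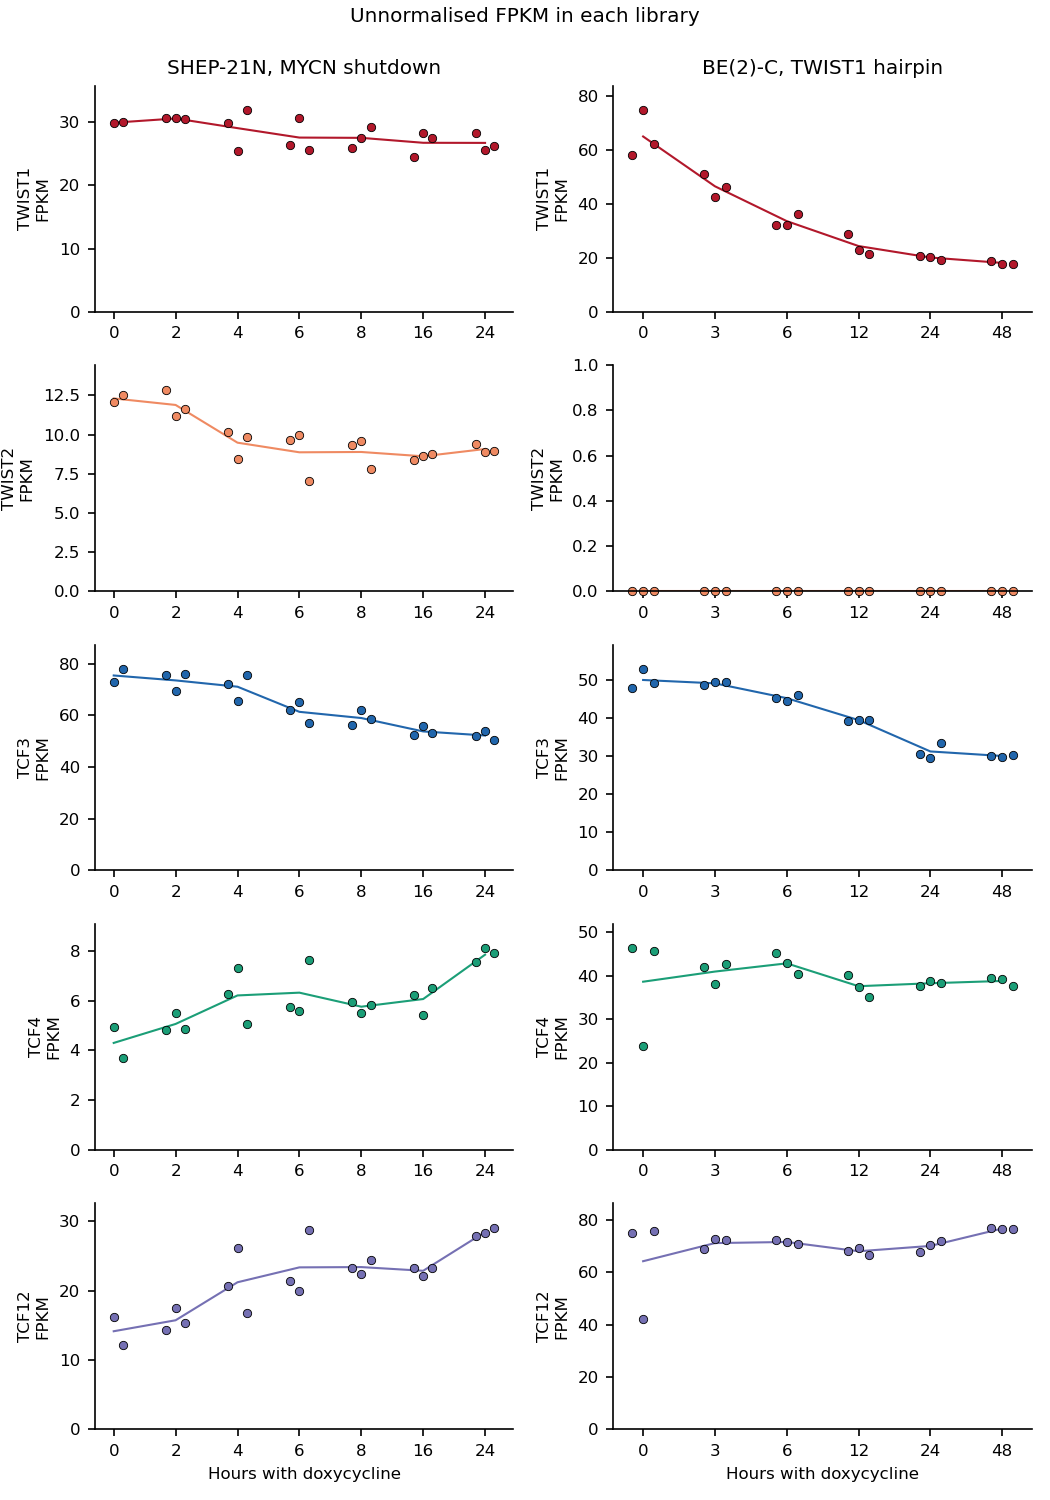
Unnormalised FPKM (vertical axes, from 0) of TWIST1, TWIST2, TCF3, TCF4 and TCF12 against hours with doxycycline (categories, not to scale), in SHEP-21N cells (left) and BE(2)-C cells (right). Each point is a library and lines join group means. TWIST1 falls from 64.9 to 18.1 FPKM in BE(2)-C, TCF12 rises from 14.1 to 28.5 in SHEP-21N, and the low BE(2)-C points of TCF4 and TCF12 at 0 h are library 1.

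TCF12, which encodes an E protein known from muscle, neural and T-cell development, rose after MYCN shutdown. Its unnormalised level was 16.1 and 12.1 FPKM at 0 h, 20.7, 26.2 and 16.8 at 4 h, 23.3, 22.4 and 24.5 at 8 h and 27.9, 28.4 and 29.1 at 24 h. Every library from 4 h on lay above both 0 h libraries. The mean at 24 h was 28.5 ± 0.610 (SD, n = 3) against 14.1 ± 2.82 (SD, n = 2), or 201% of the start. On the unnormalised scale the log2 change was 0.97 ± 0.159 (adjusted p = 7.33e-05). The rescaled values at 24 h were 30.8, 25.4 and 21.0 FPKM against 16.7 and 14.2, a log2 change of 0.69 ± 0.184 (adjusted p = 0.0084). On that scale TCF12 already passed at 8 h, by 0.66 with an adjusted p of 0.0354, and the 16 h change of 0.64 gave 0.037. Leaving out a library of the groups compared ended the 8 h call in 5 of 5 fits (lowest adjusted p 0.0548) and held that of 16 h in 1 of 5. With the 2 groups alone the adjusted p was 0.00883 at 8 h and 0.142 at 16 h.

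TCF4, whose E protein is known from neural and plasmacytoid dendritic cell development, moved the same way from a lower level. Its unnormalised values were 4.92 and 3.67 FPKM at 0 h, 5.93, 5.51 and 5.82 at 8 h and 7.54, 8.11 and 7.89 at 24 h. The groups at 8 h and 24 h did not overlap 0 h. At 24 h the unnormalised change was 0.75 ± 0.132 (adjusted p = 0.000149) and the rescaled change was 0.46 ± 0.158 (adjusted p = 0.0288). Between 16 h and 24 h, a comparison that does not use the 0 h libraries, the unnormalised change was 0.33 ± 0.118 for TCF4 (adjusted p = 0.0477) and 0.30 ± 0.143 for TCF12 (adjusted p = 0.121). The TCF4 call was lost in 6 of 6 fits that left out a library of those times (lowest adjusted p 0.0547). With those 2 groups alone both passed, at adjusted p of 0.0169 for TCF4 and 0.0029 for TCF12.

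TCF3, the E-protein gene with the highest level in SHEP-21N, fell. Unnormalised values of 72.9 and 78.1 FPKM at 0 h went to 62.0, 65.4 and 56.9 at 6 h, 52.5, 55.9 and 53.2 at 16 h and 52.0, 54.1 and 50.7 at 24 h. All libraries from 6 h on lay below both 0 h libraries. At 6 h the unnormalised log2 change was -0.29 ± 0.0687 (adjusted p = 0.00227), and by 24 h it was -0.52 ± 0.0687 (adjusted p = 8.83e-06). After rescaling it was -0.80 ± 0.225 at 24 h (adjusted p = 0.0117).

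TWIST2 fell on both scales by 24 h. Its unnormalised values were 12.1 and 12.5 FPKM at 0 h, 10.2, 8.43 and 9.83 at 4 h, 8.40, 8.65 and 8.78 at 16 h and 9.37, 8.91 and 8.95 at 24 h. Each library from 4 h on was below both 0 h libraries, and the mean at 24 h was 73.7% of the start. At 4 h the unnormalised change was -0.35 ± 0.113 (adjusted p = 0.0296), and by 24 h it was -0.40 ± 0.113 (adjusted p = 0.0057). The 4 h call held in 2 of 5 fits that left out a library (highest adjusted p 0.215) and not with the 2 groups alone (0.198), while that at 6 h (-0.45, adjusted p = 0.00399) held in 5 of 5 but not with the 2 groups alone (0.0814). The rescaled change at 24 h was -0.68 ± 0.225 (adjusted p = 0.0255).

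TWIST1 passed the test at no time after MYCN shutdown on either scale. It stood at 29.8 and 30.0 unnormalised FPKM at 0 h and at 28.4, 25.7 and 26.2 at 24 h. The 24 h libraries were all below the 0 h libraries, by a log2 change of -0.16 ± 0.0891 (adjusted p = 0.129). Rescaled, the change at 24 h was -0.44 ± 0.227 (adjusted p = 0.131), near the median of all tested genes there, -0.31. A miss of the threshold does not show that TWIST1 did not change.

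The calls among the 5 genes read as follows against all tested genes. After rescaling none of the 5 was called at 2 h (background 0.0506%), 4 h (0.0843%) or 6 h (10.7%), where limma's unadjusted p was under 0.05 for 194, 1578 and 3558 genes. TCF12 alone was called at 8 h (7.74%) and 16 h (8.17%), and all but TWIST1 at 24 h (38.6%). On the unnormalised scale 0 of 5 were called at 2 h (0.581%), 3 at 4 h (33.9%) and 4 at 6 h (56.7%), 8 h (54.2%), 16 h (51.2%) and 24 h (65.3%). Between 16 h and 24 h it was 0 of 5 rescaled (7.87%) and 1 of 5 unnormalised (29.7%). With so many genes called on the unnormalised scale, 4 of 5 is not far from the background. In the order of all unnormalised changes at 24 h TCF12 stood at percentile 97.4, TCF4 at 93.9, TWIST1 at 40.6, TWIST2 at 21.5 and TCF3 at 14.4. All comparisons with 0 h share the same 2 libraries.

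Changes across all genes followed transcript composition in SHEP-21N. With genes cut into 4 equal classes, the median unnormalised change at 24 h ran from 0.26 in the class of lowest GC share to -0.26 in the highest, and from -0.23 in the shortest class to 0.22 in the longest. TCF4 (longest coding transcript 8343 bases, 38.2% GC) and TCF12 (6061 bases, 40.8%) lie in the lowest GC and longest classes. TCF3 (4451 bases, 61.2%), TWIST1 (1666 bases, 57.2%) and TWIST2 (1404 bases, 57.0%) lie in the highest GC class. Among genes of the same GC and length classes the 24 h change of TCF12 stood at percentile 93.2 and that of TCF4 at 80.8. TWIST1 stood at 60.8, TWIST2 at 39.8 and TCF3 at 24.4, so TCF12, TCF4, TWIST2 and TCF3 were less extreme than among all genes. With each library adjusted for both properties, a setting added after the data were seen, the 24 h changes were 0.65 for TCF12 (adjusted p = 3.43e-07), 0.35 for TCF4 (adjusted p = 7.34e-06) and -0.38 for TCF3 (adjusted p = 4.12e-08). TWIST2 then did not pass at 4 h (-0.13, adjusted p = 0.272), 6 h (-0.20, adjusted p = 0.0603) or 24 h (-0.09, adjusted p = 0.35) but kept its calls at 8 h (-0.21, adjusted p = 0.0494) and 16 h (-0.29, adjusted p = 0.00895), and TWIST1 stood at 0.14 (adjusted p = 0.0525). At 6 h TCF12 kept its call (0.37, adjusted p = 0.000479) and TCF4 (0.06), TCF3 (-0.01) and TWIST2 (-0.20) lost theirs. TCF4 also lost its calls at 4 h (0.10, adjusted p = 0.135) and 8 h (0.01, adjusted p = 0.878), while at 8 h TCF12 (0.43) and TCF3 (-0.14) kept theirs. The share of all genes called with this adjustment is not given, so these calls have no background beside them.

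The 0 h group also limits these calls, since it has 2 libraries that differ in TCF12 and TCF4. Without 0 h library 2 none of the 5 genes passed at 24 h on the rescaled scale. The highest adjusted p on leaving out a library was 0.131 for TCF12, 0.28 for TCF4, 0.155 for TCF3 and 0.207 for TWIST2. TWIST2 held its rescaled call in 1 of 5 such fits, TCF4 in 2, TCF3 in 3 and TCF12 in 4. TWIST1 passed without 24 h library 0 (-0.63, adjusted p = 0.0298). With the 0 h and 24 h libraries fitted alone none passed on the rescaled scale, at adjusted p of 0.0739 for TCF12, 0.0536 for TCF3, 0.0607 for TWIST2 and 0.164 for TCF4. On the unnormalised scale TCF12, TCF4, TCF3 and TWIST2 each passed at 24 h in 5 of 5 fits that left out a library. Earlier unnormalised calls were less firm: without 0 h library 2 the adjusted p was 0.0583 at 8 h and 0.0711 at 16 h for TCF12, and 0.374 and 0.242 for TCF4.

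**Figure D2:**
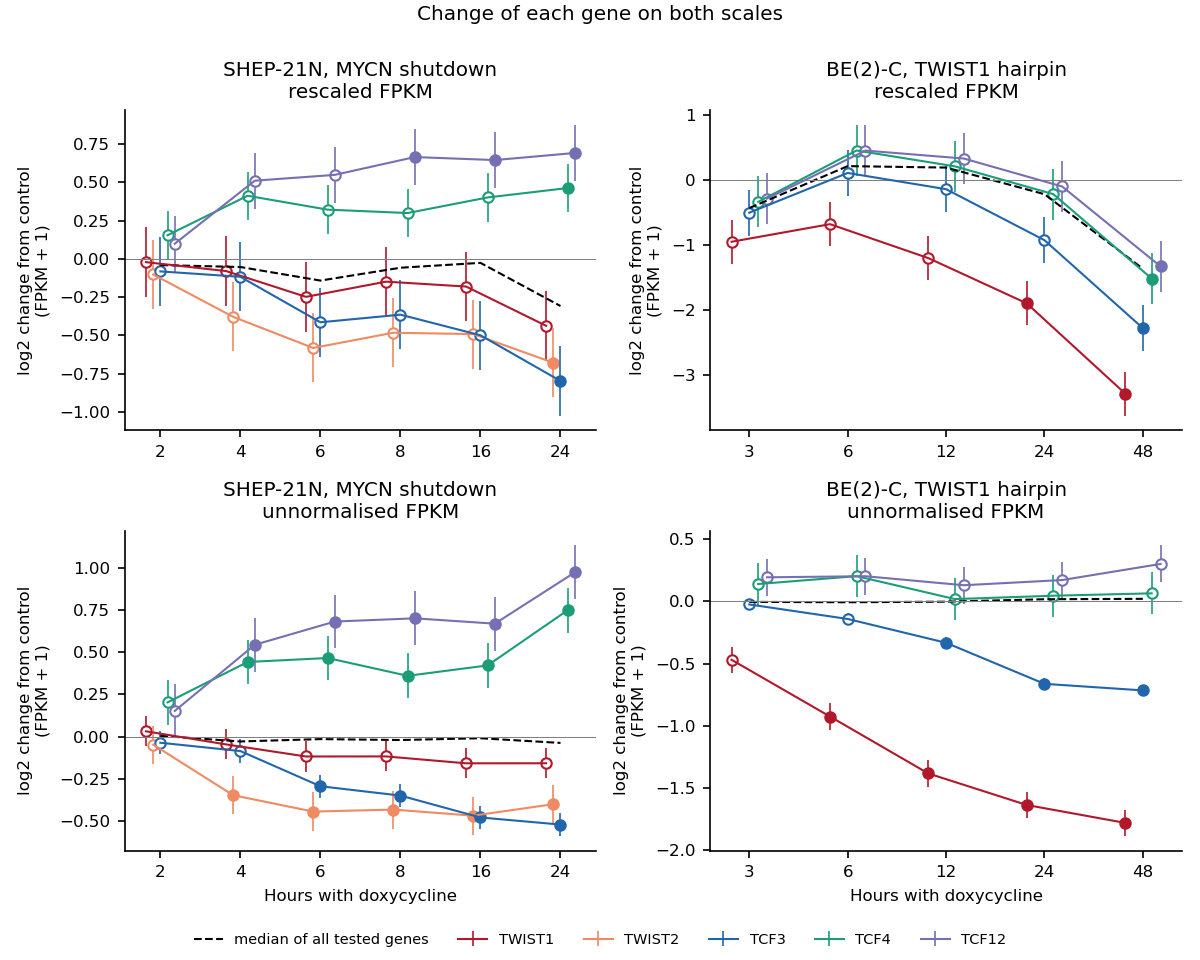
Log2 change from the control of each model (FPKM + 1, vertical axes) against hours with doxycycline (categories), for rescaled FPKM (top) and unnormalised FPKM (bottom). Error bars are standard errors from limma, filled points have an adjusted p under 0.05, and the dashed line is the median of all tested genes. TCF12 and TCF4 lie above TCF3 and TWIST2 at every time in SHEP-21N, and at 48 h in BE(2)-C the rescaled median falls to -1.36.

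In BE(2)-C cells the hairpin target TWIST1 fell, as the labels imply. Its unnormalised values were 57.9, 74.6 and 62.1 FPKM without doxycycline, 50.9, 42.4 and 46.1 at 3 h, 32.3, 32.2 and 36.2 at 6 h, 28.8, 22.9 and 21.2 at 12 h, 20.6, 20.4 and 19.2 at 24 h and 18.9, 17.7 and 17.7 at 48 h. Every treated library lay below every control library. The group means were 71.6%, 51.7%, 37.5%, 30.9% and 27.9% of the control mean of 64.9 ± 8.69 FPKM (SD, n = 3). The unnormalised change passed the test from 6 h (-0.93 ± 0.107, adjusted p = 0.000245) and reached -1.78 ± 0.107 at 48 h (adjusted p = 9.3e-09). At 3 h it was -0.47 ± 0.107 with an adjusted p of 0.679. Between 24 h and 48 h the unnormalised change was -0.14 ± 0.107 (adjusted p = 0.634). With the 2 groups alone the unnormalised 6 h change did not pass (adjusted p = 0.185). Without control library 1, the highest of the controls, the 48 h change was -1.68 (adjusted p = 6.97e-09).

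The rescaled level of TWIST1 went from 91.8, 70.3 and 82.0 FPKM to 20.5, 24.3 and 18.5 at 24 h and 7.65, 11.2 and 4.60 at 48 h. It passed at 24 h (-1.90 ± 0.339, adjusted p = 0.00253) and again at 48 h (-3.29 ± 0.339, adjusted p = 4.12e-08). At 48 h the median change of all tested genes was -1.36 on that scale. On the unnormalised scale 0.341% of tested genes had a lower change than TWIST1 at 48 h.

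TCF3 fell in these cells as well, later than TWIST1 and with little spread. Unnormalised values were 48.0, 53.0 and 49.3 FPKM without doxycycline, 48.7, 49.5 and 49.5 at 3 h, 45.3, 44.6 and 46.1 at 6 h, 39.4, 39.7 and 39.6 at 12 h, 30.7, 29.7 and 33.5 at 24 h and 30.1, 29.8 and 30.5 at 48 h. From 6 h on no library overlapped the controls. The unnormalised change was -0.14 ± 0.0463 at 6 h (adjusted p = 0.36), -0.33 ± 0.0463 at 12 h (adjusted p = 0.000474), -0.66 ± 0.0463 at 24 h (adjusted p = 9.03e-08). By 48 h it was -0.72 ± 0.0463 (adjusted p = 2.1e-08). Leaving out any 1 library kept it between -0.75 and -0.67 at 48 h, and adjustment for GC share and length gave -0.52 (adjusted p = 8.53e-10). With the 2 groups alone it did not pass at 12 h (adjusted p = 0.202). The rescaled change of TCF3 passed at 48 h only (-2.28 ± 0.352, adjusted p = 9.81e-06).

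For TCF4 and TCF12 the answer turned on control library 1. TCF4 read 46.3, 23.9 and 45.6 unnormalised FPKM without doxycycline and 39.6, 39.2 and 37.7 at 48 h, so the treated libraries fell between the controls, and the change was 0.07 ± 0.169 (adjusted p = 0.784). Without control library 1 it was -0.24 ± 0.0579 at 48 h (adjusted p = 0.00279), -0.26 at 24 h (adjusted p = 0.00235), and the 12 h change was -0.29 (adjusted p = 0.0046). TCF12 read 75.0, 42.1 and 75.7 FPKM without doxycycline and 77.1, 76.6 and 76.5 at 48 h. Its change was 0.30 ± 0.149 at 48 h (adjusted p = 0.123) and 0.03 ± 0.0309 without library 1 (adjusted p = 0.494). The shift of library 1 touched long genes of low GC share in general, with median log2 differences from the other 2 controls of -0.50 in the longest class of genes and -0.39 in that of the lowest GC share. TCF4 itself differed by -0.91 and TCF12 by -0.83. Adjusted for GC share and length, TCF12 at 48 h stood at 0.20 (adjusted p = 0.0076) and TCF4 at -0.10 (adjusted p = 0.122).

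Both fell at 48 h after rescaling. TCF4 changed by -1.52 ± 0.395 (adjusted p = 0.000996) and TCF12 by -1.33 ± 0.397 (adjusted p = 0.00297), against the median gene's -1.36. With each library centred on its median, TCF4 stood at -0.09 (adjusted p = 0.623) and TCF12 at 0.09 (adjusted p = 0.598).

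Of the 4 genes tested in BE(2)-C, none was called on the rescaled scale at 3 h (background 0.035%), 6 h (0.035%) or 12 h (0.0437%), TWIST1 was at 24 h (0.604%) and all 4 were at 48 h (93.4%) and between 24 h and 48 h (92.4%). At 3 h, 6 h and 12 h limma's unadjusted p was under 0.05 for 243, 80 and 133 genes on that scale. On the unnormalised scale none was called at 3 h (0.0175%, with 557 genes at an unadjusted p under 0.05), 1 at 6 h (0.481%) and 2 at 12 h (4.08%), 24 h (23.1%) and 48 h (39.4%). Between 24 h and 48 h none was called (3.18%, with 1775 genes at an unadjusted p under 0.05). Where all 4 are called on the rescaled scale nearly every gene is.

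Shares and ratios within a library were taken on the unnormalised scale and were not adjusted for GC share and length. TCF3 lies in the highest GC class and TCF4 and TCF12 in the lowest, so the shares also carry any shift of a library with GC share. With adjustment the 6 h changes of the genes themselves in SHEP-21N were -0.01 for TCF3, 0.06 for TCF4 and 0.37 for TCF12, while all 3 genes passed at 24 h. In SHEP-21N the share of the summed TCF3, TCF4 and TCF12 unnormalised FPKM that came from TCF3 was 77.6% and 83.2% at 0 h, a mean of 67.5% ± 5.75 (SD, n = 3) at 6 h and 59.4%, 59.7% and 57.8% at 24 h. TCF12 went from a mean of 15.0% to 32.2% ± 0.954 and TCF4 from 4.57% to 8.86% ± 0.204 (SD, n = 3). The 24 h libraries did not overlap the 0 h libraries for any of the 3 shares. Over all times a permutation test of the 20 libraries gave p = 0.00021 for TCF3, 0.0006 for TCF4 and 0.00023 for TCF12, or 0.00052, 0.0009 and 0.00052 adjusted over 9 such tests. For 24 h against 0 h alone the exact permutation p, two-sided, was 0.1 for each, the smallest that 3 against 2 libraries allow, and 0.185 adjusted over 50 such tests.

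The shares started more even in BE(2)-C. TCF12 held 41.3% ± 5.19, TCF3 33.9% ± 9.21 and TCF4 24.7% ± 4.03 without doxycycline (SD, n = 3), the spread coming from library 1. At 48 h they were 52.7% ± 0.179, 20.7% ± 0.346 and 26.6% ± 0.518. The permutation test over all times of the 18 libraries gave p = 1e-05 for TCF12 (the smallest it can give, 4.5e-05 adjusted). It gave 0.00029 for TCF3 (0.00052 adjusted) and 0.57 for TCF4 (0.62 adjusted). The shares make up a whole, so a lower TCF3 share raises the others and the tests are not separate results. The level of TCF12 itself was not called at 48 h (0.30, limma's adjusted p = 0.123), and without control library 1 its change was 0.03 (adjusted p = 0.494). Exact permutation p for 48 h against no doxycycline was 0.1 for TCF12 and TCF3, the smallest possible with 3 against 3, and 0.8 for TCF4. Without control library 1 the 48 h difference was -7.95 percentage points for TCF3 and 8.36 for TCF12, against -13.3 and 11.4 with it.

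The log2 ratio of TWIST1 to the summed E-protein FPKM lay between -1.96 and -1.56 in the 20 SHEP-21N libraries, with means of -1.65 at 0 h and -1.73 ± 0.0997 (SD, n = 3) at 24 h. The permutation test over all times gave p = 0.62. For BE(2)-C the ratio was -1.55, -0.67 and -1.46 without doxycycline and -2.96, -3.04 and -3.03 at 48 h, and every treated library lay below every control library. The mean difference at 48 h was -1.78, or -1.51 without control library 1, and the permutation test over all times gave p = 1e-05, the smallest it can give. TWIST1 is the hairpin's target, so this fall of the ratio restates the fall of TWIST1 and is no separate result. TWIST2 as a share of the summed TWIST1 and TWIST2 FPKM in SHEP-21N, a measure added after the data were seen, went from 29.1% ± 0.41 (SD, n = 2) to 25.4% ± 0.485 at 24 h (SD, n = 3), with a permutation p over all times of 0.035 (0.046 adjusted).

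**Figure D3:**
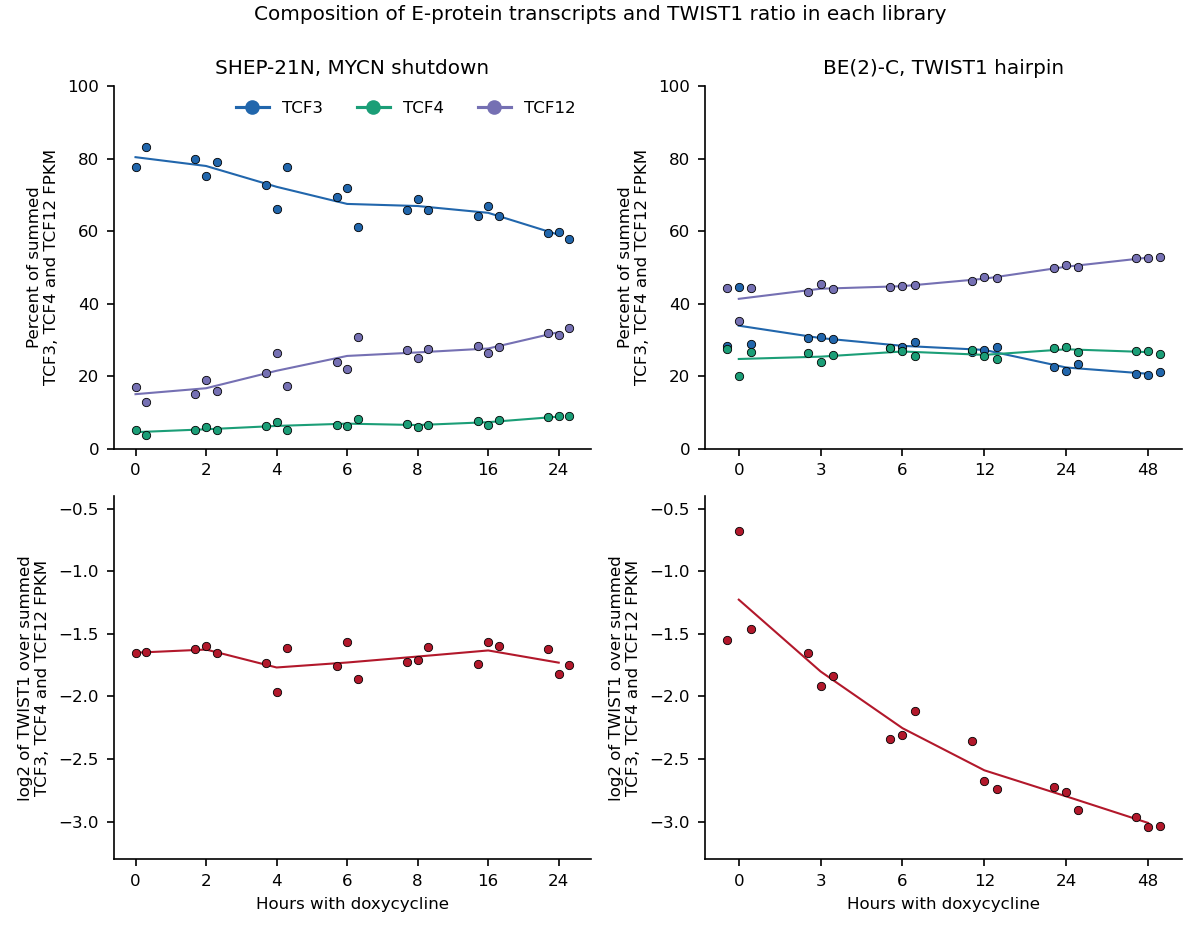
Top, percent of the summed TCF3, TCF4 and TCF12 unnormalised FPKM from each gene. Bottom, log2 ratio of TWIST1 to that sum. Each point is a library, lines join means, and hours with doxycycline are categories. The TCF3 share falls from 80.4% to 59.0% in SHEP-21N, and the TWIST1 ratio goes from -1.23 to -3.01 in BE(2)-C.

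Other helix-loop-helix genes are given from lists drawn up with earlier results of these data known, without a test of the list. For the listed genes no fit without BE(2)-C control library 1 is given. None adjusted for GC share and length is given either, so their changes also carry any shift with these properties. In SHEP-21N at 24 h the median unnormalised change was 0.45 among genes in both the longest and the lowest GC class. It was -0.28 among genes in both the shortest and the highest GC class. All 4 ID genes, the inhibitors that sequester E proteins, fell at 24 h in SHEP-21N on both scales, where 65.3% (unnormalised) and 38.6% (rescaled) of all genes were called. ID3 went from 339.8 ± 25.3 (SD, n = 2) to 174.8 ± 3.01 (SD, n = 3) unnormalised FPKM (-0.95, limma's adjusted p = 6.02e-08) and ID1 from 203.8 to 113.6 (-0.84, adjusted p = 2.59e-07). ID2 went from 65.4 to 44.8 (-0.54, adjusted p = 5.7e-06) and ID4 from 2.58 to 1.61 (-0.46, adjusted p = 4.49e-05). The list's median change was -0.69 against -0.04 for all tested genes. At 48 h in BE(2)-C, 3 ID genes were tested and ID1 fell on the unnormalised scale (-0.67, adjusted p = 0.000676). It went from 86.6 ± 20.6 to 53.4 ± 2.78 FPKM (SD, n = 3), so its controls were widely spread. ID2 stood at -0.03 (adjusted p = 0.808) and ID3 at 0.01 (adjusted p = 0.92). All 3 were called lower there after rescaling, as 93.4% of all genes were called, with a median of -1.68 against -1.36 for all genes.

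The SHEP-21N values held 37 class II partner genes, of which 3 passed the filter and were tested. On the unnormalised scale at 24 h, where 65.3% of all genes were called, all 3 fell: HAND2, a sympathetic lineage factor (43.4 to 33.6 FPKM, -0.36, adjusted p = 0.000843), ATOH8 (4.81 to 3.75, -0.29, adjusted p = 0.00679) and MSC, a repressor also called musculin (13.6 to 11.4, -0.23, adjusted p = 0.0225). MSC did not pass after rescaling (adjusted p = 0.0623). The list's median was -0.29 unnormalised. For BE(2)-C 5 were tested, with an unnormalised median of -0.02. LYL1, known from blood cell development, fell at 48 h (14.5 ± 3.53 to 5.51 ± 0.405 unnormalised FPKM, ± SD, -1.23, adjusted p = 9.37e-07). HAND2 fell as well (224.7 ± 17.6 to 151.4 ± 7.28, ± SD, -0.56, adjusted p = 9.26e-07). MESP1, a mesoderm factor named after its value was seen, rose on that scale from widely spread controls (4.18 ± 1.92 to 6.49 ± 0.294, ± SD, 0.60, adjusted p = 0.0235). HAND1 stood at -0.02 (adjusted p = 0.848). After rescaling LYL1, HAND2 and HAND1 were called lower (93.4% of all genes called) and MESP1 was not called (-0.61, adjusted p = 0.0689), so the direction of MESP1 turned with the scale.

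Of 7 tested cofactor genes in SHEP-21N at 24 h, 4 rose and 1 fell on the unnormalised scale (65.3% of all genes called), and 1 rose and 1 fell on the rescaled (38.6%). RUNX1T1, a corepressor that binds E proteins, rose on both (0.834 to 2.01 unnormalised FPKM, 0.71, adjusted p = 2.29e-05), and LMO4 fell on both (20.3 to 16.0, -0.33, adjusted p = 0.000173). EP300, an acetyltransferase that E proteins recruit, rose on the unnormalised scale (6.07 to 7.01, 0.18, adjusted p = 0.0189), and CREBBP stood at -0.17 (adjusted p = 0.0703). The other risers, LDB1 (0.20) and CBFA2T2 (0.29), were named after their values were seen. At 48 h in BE(2)-C 1 of 9 rose and 2 fell on the unnormalised scale (39.4% of all genes called). LMO4, named after its value was seen, rose (4.72 to 7.21 FPKM, 0.52, adjusted p = 7.42e-06). The falls were in LDB1 (34.6 to 27.0 FPKM, -0.35, adjusted p = 4.4e-05) and LMO2 (2.10 to 1.34, -0.41, adjusted p = 0.018), while CBFA2T2 (-0.20, adjusted p = 0.14) and CREBBP (0.10, adjusted p = 0.69) did not pass. All 9 were called lower after rescaling, where 93.4% of all genes were called.

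Among genes linked to TWIST1 in epithelial to mesenchymal transition, 7 of 12 tested rose and 3 fell in SHEP-21N at 24 h on the unnormalised scale (65.3% of all genes called), with a median of 0.37 against -0.04 for all genes. Neither median was adjusted for GC share and length. After rescaling 1 rose and 2 fell (38.6% of all genes called). PRRX1, a mesenchymal homeobox factor, rose on both (27.2 to 48.9 unnormalised FPKM, 0.83, adjusted p = 8.57e-07), while SNAI1 (23.2 to 16.2, -0.49, adjusted p = 0.000737) and YBX1 (1111 to 738.2, -0.59, adjusted p = 2.56e-06) fell on both. AKT2 fell on the unnormalised scale (-0.27, adjusted p = 0.00295). At 48 h in BE(2)-C 1 of 10 rose and 2 fell on the unnormalised scale (39.4% of all genes called). VIM (0.26, adjusted p = 0.0186) and SNAI2 (-0.42, adjusted p = 0.00429), named after their values were seen, are among them. SNAI1, a repressor of epithelial genes, went from 13.4 to 8.36 FPKM (-0.61, adjusted p = 3.62e-05), while SPARC (-0.13, adjusted p = 0.12), AKT2 (-0.08, adjusted p = 0.262) and YBX1 (0.02, adjusted p = 0.863) did not pass. All 10 were called lower after rescaling, again against 93.4% of all genes called.

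The HMG-box TCF/LEF genes are separate genes of the Wnt pathway, of which TCF7L1 and TCF7L2 have also gone by the names TCF3 and TCF4. TCF7L2 (10.8 to 11.2 unnormalised FPKM, adjusted p = 0.579) and TCF7L1 (1.85 to 2.27, adjusted p = 0.151) did not pass at 24 h in SHEP-21N. By 48 h in BE(2)-C TCF7 (5.62 to 3.22, -0.66, adjusted p = 1.83e-05) and TCF7L2 (13.5 to 10.3, -0.34, adjusted p = 0.0112) fell on the unnormalised scale.

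**Figure D4:**
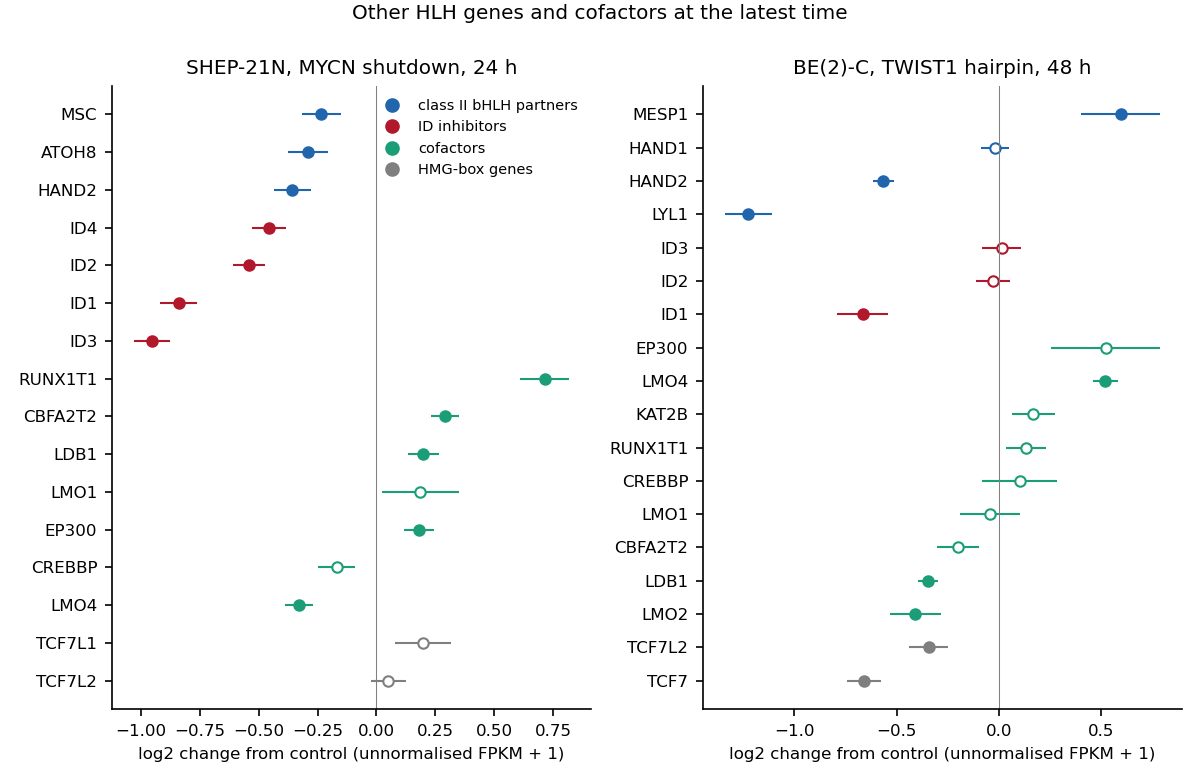
Log2 change (unnormalised FPKM + 1, horizontal axes) at 24 h in SHEP-21N (left) and 48 h in BE(2)-C (right) of class II partners, ID inhibitors, cofactors and HMG-box genes. Bars are standard errors from limma and filled points have an adjusted p under 0.05. All 4 ID genes lie below 0 in SHEP-21N, from -0.46 to -0.95, and LYL1 is the lowest point in BE(2)-C at -1.23.

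The genes whose unnormalised course was most like each of the 5 were found by the root mean square difference of log2 changes over the 18 treated SHEP-21N or 15 treated BE(2)-C libraries. In SHEP-21N they were NCKAP1, KIDINS220 and CLTC for TCF12 (differences of 0.0503 to 0.0597), AP3B1, HERC1 and LRRFIP1 for TCF4 (0.072 to 0.0773), IRAK1, DDX24 and DDX54 for TCF3 (0.0423 to 0.0465), ZNF581, MARVELD1 and UBL4A for TWIST2 (0.0894 to 0.0977) and CTBP1 for TWIST1 (0.0667). For BE(2)-C the nearest to TWIST1 were NUP50, EMILIN1 and TBC1D10B, at larger differences of 0.183 to 0.261. NUP50 ended at -1.61, EMILIN1 at -1.96 and TBC1D10B at -1.53 at 48 h, beside -1.78 for TWIST1. The nearest to TCF3 there were CLPTM1L, COQ9 and FAM32A (0.0496 to 0.0664), to TCF4 ICK, CREB1 and PDE3B (0.0387 to 0.0437) and to TCF12 RSPRY1, KLHL18 and TMEM194A (0.0325 to 0.0454). Likeness over libraries that share their controls and scale is a description.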

How the data were processed

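Polyadenylated RNA of 38 libraries was analysed, 20 of SHEP-21N and 18 of BE(2)-C. Cells were counted, ERCC RNA went in with the lysis reagent and libraries were stranded, per the labels' protocols. The submitters' processing notes name HISAT, hg19 and Cufflinks 2.0.0. For each model the authors deposited unnormalised FPKM and FPKM rescaled to the spike-ins, and the sources used here do not give the rescaling method. Of 49 listed samples 11 (BE(2)-C with DMSO or JQ1) were not analysed here. Group names in the column headers gave each library its group; end numbers only tell libraries apart and run from 0, except 1 and 2 at 0 h.

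limma 3.58.1 (R 4.3.3) was fitted to log2(rescaled FPKM + 1) with 1 mean per time and an intensity trend, on genes with a mean of at least 1 unnormalised FPKM, spike-ins left out, with Benjamini-Hochberg adjustment over all tested genes, and again to the unnormalised table. The pseudocount of 1 understates changes of low genes. The script was tested on simulated data. Shares and ratios were tested with exact permutation tests and 100000 resamples over times (numpy 2.4.6, scipy 1.17.1). Transcript GC share and length, from GENCODE's longest coding transcript per symbol, covered 87.7% and 88.9% of tested genes; a spline on each was removed per library. The 5 genes, the lists and the tests were chosen with earlier results of these data known. Named genes were the 5 genes at all times, up to 4 per list with the smallest adjusted p at the latest time on the rescaled scale, and the 3 genes most like each of the 5. A few genes that this rule names are not reported here. Promoter windows matched 4 of the 5 symbols.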

Additional observations from a re-analysis of the deposited data

How the results depend on the processing

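The number of the 5 genes called moved with the scale at most times, and at 24 h in SHEP-21N with the libraries fitted. On the unnormalised table, and with median centring alike, it was 3, 4, 4 and 4 at 4, 6, 8 and 16 h in SHEP-21N, 1 at 24 h against 16 h, 1, 2, 2 and 2 at 6, 12, 24 and 48 h in BE(2)-C, and 0 at 48 h against 24 h. With robust moderation it was 1 at 6 h in SHEP-21N. With the 2 groups alone it was 1 at 6 h, 0 at 16 h and 0 at 24 h. Leaving out any 1 of the 20 libraries, those of other times included since all share a fit, gave 0 to 1 at 6 and 8 h, 0 to 2 at 16 h and 0 to 4 at 24 h. The cause was not tested. The share of all tested genes called is given here for the rescaled and unnormalised fits only. Counts under the other settings therefore have no background beside them and are not read as results about the genes. Deviations of control libraries from their group mean correlated by -0.22 to 0.16 with those of same-numbered treated libraries. Treated times were not set against each other, so these values do not settle whether the numbers pair libraries. With the replicate block 0 of the 5 genes were called at 8 h and 0 at 16 h in SHEP-21N, because TCF12 (0.67 and 0.65) lost its call. With that block 57 of 59 values kept direction and call.

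The sign of the change turned with the scale for TCF12 and TCF4 in BE(2)-C. None of the 48 h values above 0 that follow was called. The rescaled changes at 48 h against no doxycycline, -1.33 for TCF12 and -1.52 for TCF4, lay near the median of all tested genes, -1.36. At 48 h against no doxycycline TCF12 was 0.30 and TCF4 0.065 on the unnormalised table, and 0.13 and 0.019 at 48 h against 24 h; TCF12 was 0.093 with median centring. Without control library 1 the unnormalised values were -0.14 for TCF12 and -0.29 for TCF4 at 12 h, -0.10 and -0.26 at 24 h, and -0.24 for TCF4 at 48 h, called lower in each case. With GC and length adjustment TWIST1 was 0.17 at 4 h in SHEP-21N (adjusted p = 0.0477), against -0.05 without it. The settings on the unnormalised table other than the table itself were added after the data were seen.

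On leaving out 1 library, the 48 h differences in BE(2)-C ranged from -1.95 to -1.51 for the log2 ratio of TWIST1 to E proteins, and in percentage points from -16.1 to -7.95 for TCF3, -0.42 to 3.22 for TCF4 and 8.36 to 12.9 for TCF12. The 24 h differences in SHEP-21N ranged from -24.2 to -18.6 for TCF3, 3.62 to 4.94 for TCF4 and 15.0 to 19.2 for TCF12. On the rescaled table the TCF4 difference at 24 h was 4.07 and the TCF12 difference at 48 h was 11.03. A pseudocount of 0.1 and a fit without an intensity trend kept 59 of 59 values. No depth is known for these values.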
